A study of Mus musculus with 6 samples.

Results

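The enzymes that break down phenylalanine, tyrosine and tryptophan were followed here through 9 genes, Tat, Hpd, Hgd and Fah of the tyrosine pathway and Tdo2, Afmid, Kmo, Kynu and Haao of the kynurenine pathway of tryptophan. The genes were taken by symbol from the platform annotation of the arrays, out of 18193 genes and 45037 probe sets in all. A probe set is the group of short oligonucleotides on the array that reports 1 transcript. The 9 genes were reported by 16 probe sets, and all of these carried a single gene symbol. Each gene was read from its brightest probe set, and the other 7 probe sets, which belonged to Tdo2, Hgd, Kynu and Afmid, served as a check.

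RNA had been taken from cultured hepatocytes of E16.5 mouse embryos of 2 kinds. In Cnot3KO embryos, Cre recombinase expressed from the albumin promoter deleted floxed Cnot3, whose product is a subunit of the CCR4-NOT complex that shortens mRNA poly(A) tails. The control cells were labelled wild type. Per the study's methods, controls could carry 1 or 2 floxed alleles without Cre (flox/+, flox/flox), or the Alb-cre transgene with no or 1 floxed allele (+/+, flox/+), and which of these gave the cells on the arrays is not given in the sources used here. Both kinds of culture had been grown for some days with oncostatin M and the glucocorticoid dexamethasone, after floating non-hepatic cells were washed away, and RNA was taken at 0, 6 and 12 h of actinomycin D (ActD), which blocks transcription. Each genotype and time was measured on 1 array, 6 arrays in all, and whether embryos were pooled is not given in the sources used here. Because the albumin promoter acts in the hepatic lineage, other cells left in the dishes would keep Cnot3, and per the study deletion was still partial in the fetal liver and efficient at the end of culture.

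Phenylalanine is hydroxylated to tyrosine in the liver with tetrahydrobiopterin as cofactor. Tyrosine is then broken down in order by tyrosine aminotransferase (Tat), 4-hydroxyphenylpyruvate dioxygenase (Hpd), homogentisate dioxygenase (Hgd) and, after an isomerase, fumarylacetoacetate hydrolase (Fah), which yields fumarate and acetoacetate. Loss of Hgd function causes alkaptonuria and loss of Fah function causes hereditary tyrosinaemia. Tryptophan is opened by tryptophan dioxygenase (Tdo2) and converted through kynurenine by kynurenine formamidase (Afmid), kynurenine monooxygenase (Kmo), kynureninase (Kynu) and 3-hydroxyanthranilate dioxygenase (Haao) to the precursor of NAD. Tat and Tdo2 are known as glucocorticoid-inducible genes that switch on around birth.

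The promoters of the tyrosine enzymes are shown because the genes act in 1 chain and all 4 mRNAs read lower in Cnot3KO cells at every time. On the arrays 29.2% of all genes did so, and the 4 include Hpd, the lowest of the 9. Each line gives the 250 bases before the RefSeq transcription start on the coding strand, from assembly GRCm38.p6, for Tat at chr8:109990186-109990435 (plus strand), Hpd at chr5:123182724-123182973 (minus strand), Hgd at chr16:37579903-37580152 (plus strand) and Fah at chr7:84605943-84606192 (minus strand). Capitals mark matches, on either strand, to the motifs listed after the sequences.
Tat: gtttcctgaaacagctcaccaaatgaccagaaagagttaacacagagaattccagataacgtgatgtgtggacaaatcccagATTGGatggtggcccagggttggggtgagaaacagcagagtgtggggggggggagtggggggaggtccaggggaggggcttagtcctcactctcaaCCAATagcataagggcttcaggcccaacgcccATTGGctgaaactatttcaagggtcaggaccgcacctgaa
Hpd: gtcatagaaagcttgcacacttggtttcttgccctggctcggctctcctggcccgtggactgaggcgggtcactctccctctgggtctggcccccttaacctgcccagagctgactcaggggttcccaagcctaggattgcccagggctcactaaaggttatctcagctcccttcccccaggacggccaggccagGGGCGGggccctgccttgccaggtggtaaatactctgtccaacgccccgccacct
Hgd: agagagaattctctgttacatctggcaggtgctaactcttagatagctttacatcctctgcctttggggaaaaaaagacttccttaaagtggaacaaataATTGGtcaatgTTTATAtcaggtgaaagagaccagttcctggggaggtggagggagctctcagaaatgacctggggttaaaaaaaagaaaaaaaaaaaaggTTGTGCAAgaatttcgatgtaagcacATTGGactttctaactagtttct
Fah: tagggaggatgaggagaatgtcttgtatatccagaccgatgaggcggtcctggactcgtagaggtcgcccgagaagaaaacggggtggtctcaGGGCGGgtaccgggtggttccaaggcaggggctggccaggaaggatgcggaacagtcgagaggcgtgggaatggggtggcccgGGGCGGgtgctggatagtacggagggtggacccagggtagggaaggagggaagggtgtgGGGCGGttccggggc
The TATA box was searched for as TATAAA and the CCAAT box by the letters of its name. The letters used were GGGCGG for the GC box and GTTAAT for the HNF1 half-site, a piece of the site of a hepatocyte transcription factor. For the C/EBP-like motif they were TTNNGCAA, and for the half-site of the glucocorticoid receptor TGTTCT. No match overlapped another in the sequences shown. The Fah window held 3 GC boxes and the Hpd window 1. The Tat window held 3 CCAAT boxes, and the Hgd window held 2 CCAAT boxes, 1 TATA box and 1 C/EBP-like match. Their GC content was 53.6% for Tat, 62.8% for Hpd, 38.8% for Hgd and 64.4% for Fah. Windows were at hand for 8 of the 9 genes, all but Kynu. Of these 8, 3 held a CCAAT box and 3 a GC box, against 33.8% and 32.7% of 32851 RefSeq promoter windows of the same length. A TATA box was found in 2 of the 8 (12.4% of all windows), and an HNF1 half-site (6.43%), a C/EBP-like match (9.56%) and a glucocorticoid receptor half-site (16.1%) in 1 each.

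Values are intensities of the Robust Multi-array Average (RMA), which gives all arrays nearly the same distribution. A level is thus relative to the rest of its array, a decline common to every transcript leaves no trace, and intensities of different probe sets cannot be ranked against each other. On the 6 arrays the median intensity was 69.7 to 72.4, with the 20th percentile at 19.7 to 22.4. Cnot3 itself was read at 296 in control and 174 in Cnot3KO cells at 0 h, at 214 and 174 at 6 h and at 158 and 146 at 12 h. A second Cnot3 probe set, at 160.4 and 155 at 0 h, showed a log2 difference of -0.05 there against -0.77 in the first. Whether either set reads the deleted exons was not checked, so neither value measures how complete the deletion was. With 1 array per group there is no replicate error, so the spread between probe sets of the same gene was taken as a yardstick. Over 4117 genes with a second probe set the SD of a log2 genotype difference was 0.24 at 0 h, 0.34 at 6 h and 0.50 at 12 h. This yardstick leaves out the variation between cultures.

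All 4 tyrosine enzymes read lower in Cnot3KO than in control cells at every time, as did 29.2% of all genes. Over the 3 times the estimate was largest for Hpd and smaller for Tat and Fah, and for Hgd it depended on the probe set. None of these differences passed the test over the 3 times that is given after the values. Hpd read 289.6, 317 and 315 at 0, 6 and 12 h in control cells and 209, 223 and 159 in Cnot3KO cells. All 3 Cnot3KO arrays lay below all 3 control arrays, and the gap was 1.38-fold at 0 h, 1.42-fold at 6 h and 1.98-fold at 12 h. In bulk RNA of this kind, fewer cells that make an mRNA and less of it per cell cannot be told apart. Tat, the first and rate-limiting step, read 122, 113 and 78.0 in control cells and 95.7, 79.4 and 72.9 in Cnot3KO cells. Its Cnot3KO value was the lower at each time, by 1.28-fold, 1.42-fold and 1.07-fold, but the groups overlapped because the control value at 12 h was below the Cnot3KO values at 0 and 6 h.

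Fah, the last enzyme of the chain, read 2473, 2975 and 3203 in control cells and 2034, 2342 and 2652 in Cnot3KO cells. The difference was even over time, 1.22-fold, 1.27-fold and 1.21-fold lower in Cnot3KO, while the level was higher at each later time in both genotypes. Hgd read 462, 432 and 344 in control cells and 446, 402 and 328 in Cnot3KO cells on its chosen probe set, 3 differences of at most 1.08-fold. In log2 these were -0.05, -0.11 and -0.07, smaller than the yardstick at each time. The other Hgd probe set read 82.0, 84.2 and 92.1 in control cells and 63.3, 59.0 and 57.1 in Cnot3KO cells. There the 2 genotypes did not overlap, with log2 differences of -0.37, -0.51 and -0.69, so the 2 sets of Hgd gave different sizes with the same sign.

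In the kynurenine pathway the genotypes started level on the chosen probe sets, and Afmid moved apart after ActD. Tdo2 read 26.8, 26.6 and 24.4 in control cells and 26.6, 22.6 and 22.3 in Cnot3KO cells. These values were just above the 20th percentile of each array and below the median on all 6. The other 2 Tdo2 probe sets, from 10.02 to 14.6, lay under the 20th percentile on every array, so Tdo2 was read only near the lower limit of the arrays. Afmid read 221, 370 and 405 in control cells and 219, 272 and 256 in Cnot3KO cells. It was level at 0 h, and Cnot3KO was 1.36-fold lower at 6 h and 1.58-fold lower at 12 h.

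A second Afmid probe set read 149, 232 and 195 in control cells and 181, 183 and 179 in Cnot3KO cells. The third set read 47.1, 58.6 and 55.9 in control cells and 41.1, 38.5 and 34.7 in Cnot3KO cells, and the fourth stayed near 10, under the 20th percentile on every array. The relative rise of Afmid in ActD in control cells was thus seen in 3 of 4 probe sets, and Cnot3KO was the lower genotype at 6 and 12 h in each of these 3. Kmo read 88.4, 100.4 and 92.1 in control cells and 89.3, 97.0 and 75.9 in Cnot3KO cells, with a log2 difference of 0.02 at 0 h and -0.28 at 12 h. Haao read 245, 335 and 271 in control cells and 242, 283 and 247 in Cnot3KO cells, and peaked at 6 h in both.

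The 2 Kynu probe sets differed. The chosen probe set read 269.6, 269.8 and 158 in control cells and 266, 247 and 160.2 in Cnot3KO cells, with log2 differences of -0.02, -0.13 and 0.02. Its other set, annotated to a full-length cDNA, read 42.4, 48.3 and 43.5 in control cells and 19.5, 27.8 and 23.8 in Cnot3KO cells. The Cnot3KO value at 0 h was under the 20th percentile of its array (19.7), so that the gap at 0 h is given as at least 2.16-fold. Cnot3KO was 1.73-fold lower at 6 h and 1.83-fold lower at 12 h, with no overlap, at intensities below the median of every array. The chosen set was lower at 12 h than at 0 h and showed no genotype difference larger than the yardstick, while the other set showed a genotype difference and no lower value at 12 h. Macrophage markers were also lower in Cnot3KO cells, with a summed level of 11490.0 to 12379 against 15328 to 19964 in control cells, and their part in this difference was not tested.

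**Figure D1:**
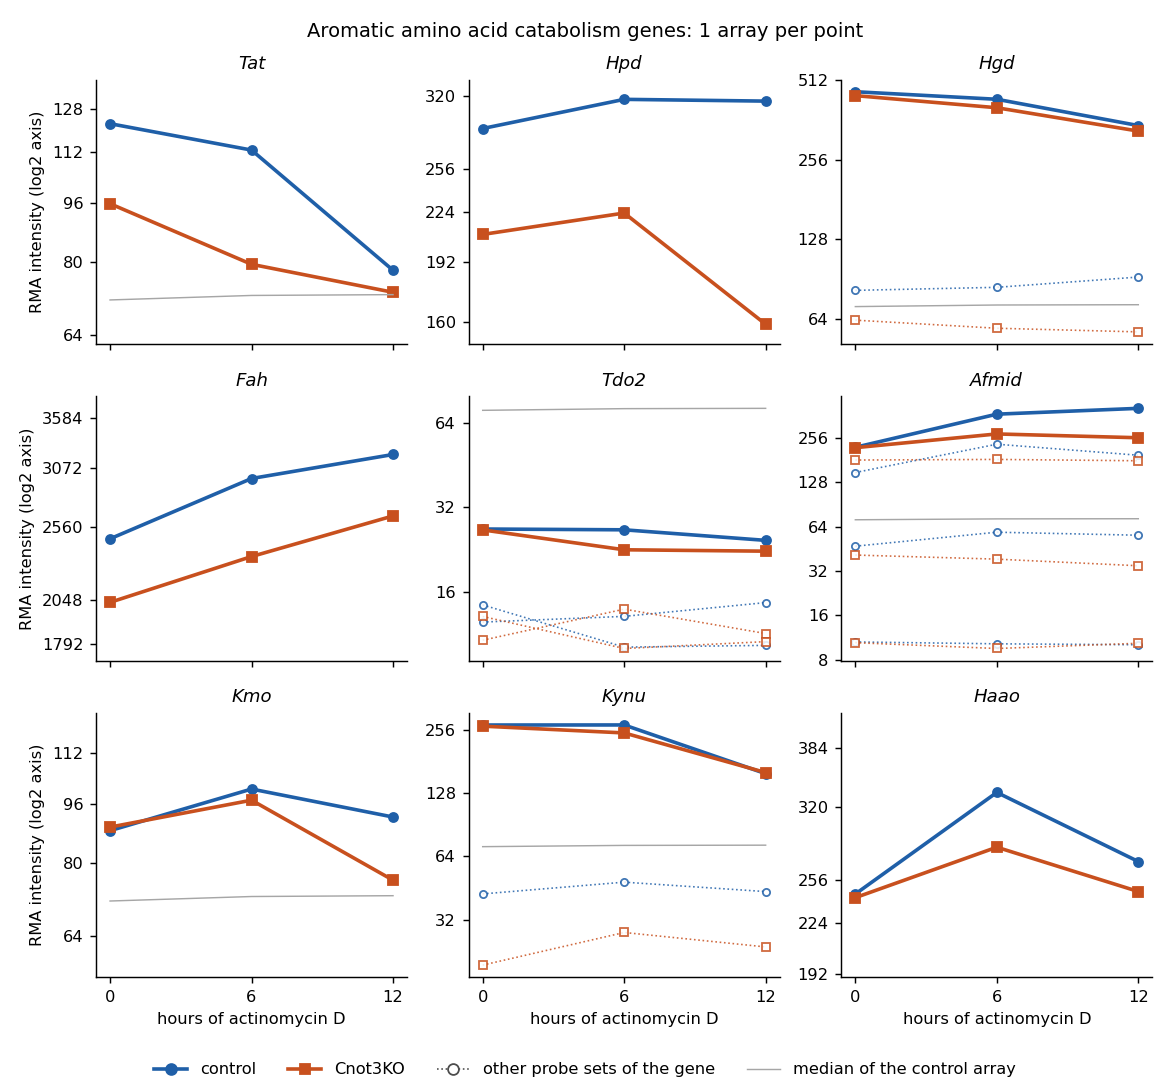
RMA intensity on a log2 axis against hours of ActD for each gene, blue circles for control and orange squares for Cnot3KO, 1 array per point. Solid lines are the chosen probe sets, dotted lines with open symbols the other sets, and the grey line, drawn where values come near it, is the median of the control array. Hpd shows a gap at every time, Afmid a gap that opens after 0 h, and Kynu a gap only in its dotted set.

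On the chosen probe sets all 9 genes passed the filter on low intensity, and none was over 1.5-fold apart at 0 h in either direction, where 6.87% of 16110 genes were higher and 2.99% lower. With 1 array per genotype this comparison has no test. The median log2 difference of the 9 at 0 h was -0.02, beside 0.03 for all 16499 genes above the filter, and the values ran from -0.47 (Hpd) to 0.02 (Kmo). Over the 3 times, 7 of the 9 were lower in Cnot3KO at every time, all but Kmo and Kynu, and 29.2% of all genes were. Centred on ribosomal protein genes the number was 6, with Hgd lost, and centred on Gapdh, whose probe set also names pseudogenes, it was 9. Gapdh centring lowers every Cnot3KO value against control at 0 and 12 h. The shares of all genes under these 2 centrings are not given here, so neither count has one beside it. Hpd alone had every Cnot3KO array below every control array, as did 12.0% of all genes.

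Taking the 3 times together, limma compared the genotypes with time as a second term, and its p-values were adjusted over 16499 genes. Of all genes 0.703% passed as higher and 0.285% as lower, and of the 9 none passed in either direction. At an unadjusted limma p under 0.05 stood 1 of the 9, beside 33.4% of all genes. Hpd came nearest, at -0.65 ± 0.17 (log2, SE) with a limma adjusted p of 0.068, that is 1.57-fold lower. Afmid followed at -0.37 ± 0.18 (limma adjusted p = 0.197), Tat at -0.32 ± 0.15 (limma adjusted p = 0.199) and Fah at -0.30 ± 0.14 (limma adjusted p = 0.182). Haao, Tdo2, Kmo, Hgd and Kynu lay between -0.13 and -0.04, with limma adjusted p from 0.525 to 0.836. All 9 estimates were below 0, with a median of -0.13. The median of all genes was also below 0, at -0.03, so most genes shared this sign. The estimates of Haao, Tdo2, Kmo, Hgd and Kynu were smaller in size than their SE. When each probe set was fitted on its own, the other Kynu set stood at -0.93 ± 0.14 (limma adjusted p = 0.054), the other Hgd set at -0.53 ± 0.14 (limma adjusted p = 0.081) and the third Afmid set at -0.50 ± 0.16 (limma adjusted p = 0.105). Without the 0 h arrays Hpd (limma adjusted p = 0.0096) and Afmid (limma adjusted p = 0.038) passed, in a fit in which 5810 genes passed against 163 with all arrays.

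**Figure D2:**
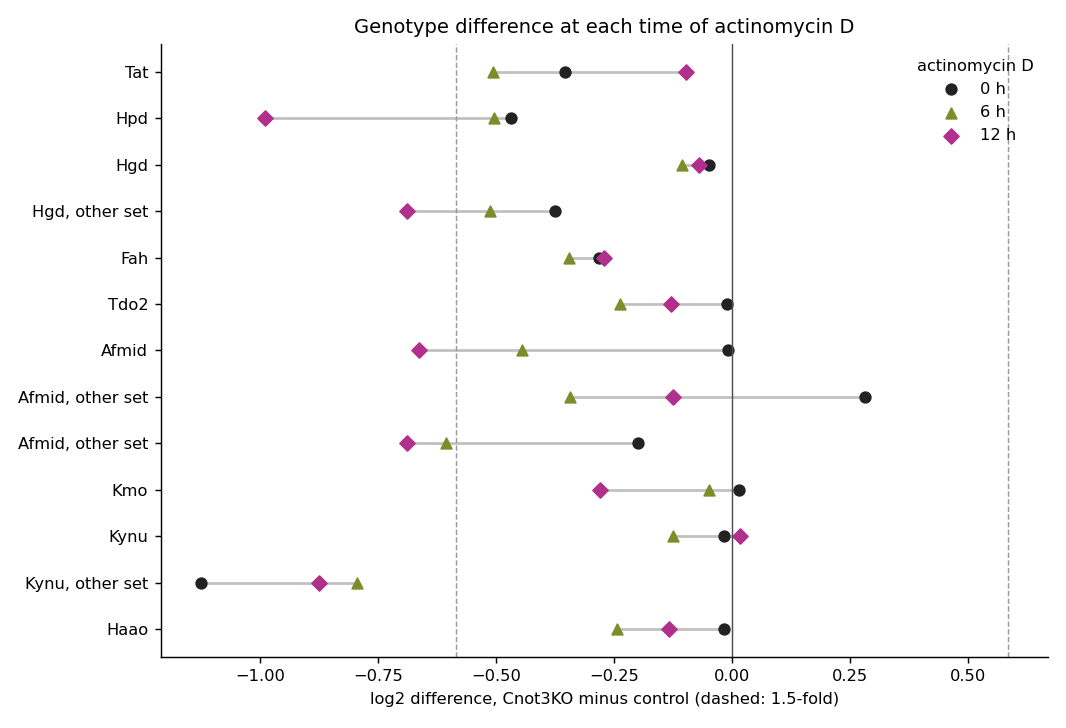
Log2 difference between Cnot3KO and control on the horizontal axis for each probe set above the 20th percentile of at least 1 array, with a black circle for 0 h, a green triangle for 6 h and a purple diamond for 12 h of ActD. Points left of 0 are lower in Cnot3KO, dashed lines mark 1.5-fold, and at 0 h only the other Kynu set, whose Cnot3KO value is under the 20th percentile of its array, lies beyond them.

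The 9 mRNAs took different courses in ActD. Kynu, Tat, Hgd and Tdo2 were lower at 12 h than at 0 h in both genotypes, Fah, Afmid and Haao were higher in both, and Kmo and Hpd were higher in control and lower in Cnot3KO cells. No gene of the 9 passed the limma test of 12 h against 0 h, which 4.53% of all genes passed as lower and 2.24% as higher, and 4 of the 9 stood at an unadjusted limma p under 0.05, as did 4920 of 16499 genes. Kynu had the estimate of largest size, at -0.75 ± 0.17 (log2, SE; limma adjusted p = 0.057), with an apparent half-life of 15.6 h in control and 16.4 h in Cnot3KO cells. Centred on ribosomal protein genes Kynu passed at -0.88 (limma adjusted p = 0.044), in a fit in which 1194 of 16499 genes passed. Tat stood at -0.52 ± 0.19 (limma adjusted p = 0.137) and Hgd at -0.43 ± 0.17 (limma adjusted p = 0.153). Afmid stood at 0.55 ± 0.22 (limma adjusted p = 0.161) and Fah at 0.38 ± 0.17 (limma adjusted p = 0.191). As levels are relative, a positive value in blocked transcription is a gain against the other mRNAs and not new RNA.

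A control half-life of at most 12 h was found for none of the 9 genes and for 15.1% of all genes. None of the 9 had a half-life over 2-fold longer in Cnot3KO cells (11.4% of all genes) or over 2-fold shorter (0.673%) under the definition used, which needs such a half-life in 1 genotype. For Tat the apparent half-life was 18.5 h in control and 30.6 h in Cnot3KO cells, and for Hgd 28.3 h and 27.0 h. From 6 to 12 h alone, Tat went from 113 to 78.0 in control and from 79.4 to 72.9 in Cnot3KO cells. On these arrays it met the definition of over 2-fold longer, without a test. The share of all genes called on the same arrays is not given here. Over the full course the genotype by time term of Tat did not pass (limma adjusted p = 0.684). The change over 12 h was smaller or more negative in Cnot3KO than in control cells for 6 of the 9 genes, beside 52.9% of all genes. Afmid changed by 0.88 (log2) in control and 0.22 in Cnot3KO cells, and Hpd by 0.12 and -0.40. The genotype by time term of limma was -0.65 ± 0.37 for Afmid (limma adjusted p = 0.388) and -0.52 ± 0.34 for Hpd (limma adjusted p = 0.449). No gene on the array passed that term (0.0%), although 2924 genes stood at an unadjusted limma p under 0.05, none of them among the 9.

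**Figure D3:**
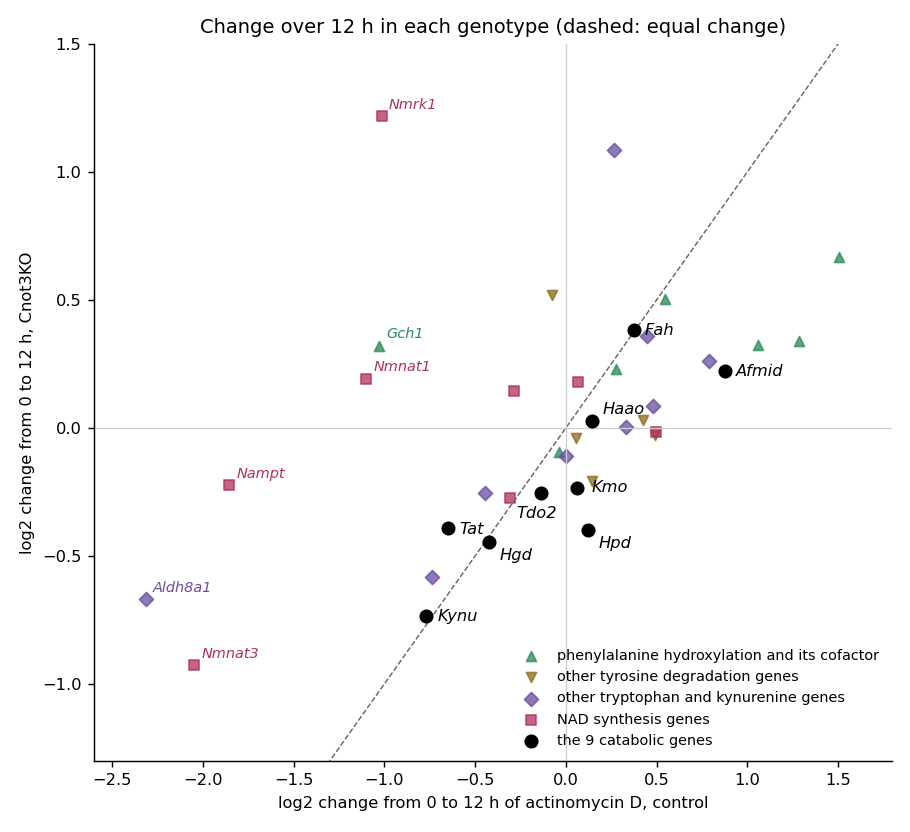
Log2 change in intensity from 0 to 12 h of ActD in control cells (horizontal axis) and in Cnot3KO cells (vertical axis), 1 point per gene, black for the 9 catabolic genes and coloured symbols for related gene lists. The dashed line marks equal change, and Afmid and Hpd lie below it while Fah, Hgd and Kynu lie close to it. Related genes whose 2 changes differ by over 1 are named.

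The cofactor of phenylalanine hydroxylation is made and recycled by Gch1, Pts, Spr, Pcbd1, Pcbd2 and Qdpr, and Gch1 is held in check by its feedback regulator Gchfr. None of these 7 was over 1.5-fold apart at 0 h or passed limma over the 3 times, and 5 were lower in Cnot3KO at every time, against 29.2% of all genes. Their median was -0.09 at 0 h and -0.45 over the 3 times. Gch1 and Gchfr parted in opposite directions in ActD, and both were picked for mention after their values were seen. Gch1 stood at 1197, 1083 and 586 in control cells and at 1337, 1435 and 1672 in Cnot3KO cells. The other Gch1 probe set gave a log2 difference of -0.35 at 0 h, against 0.16 in this one, and its values in ActD are not given here. Gchfr stood at 434, 712 and 1059 in control cells and at 408, 501 and 517 in Cnot3KO cells. The genotype by time term passed for neither (limma adjusted p = 0.193 for Gch1 and 0.216 for Gchfr).

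Of 5 further genes of tyrosine degradation, which include the isomerase Gstz1 and the aspartate aminotransferases, none was over 1.5-fold apart at 0 h or passed limma. Of 9 further genes of tryptophan and kynurenine metabolism, 1 was over 1.5-fold lower at 0 h (2.99% of all genes) and none passed limma. That gene was Kyat1, a kynurenine aminotransferase, at 471, 314 and 283 in control cells and 291, 225 and 194 in Cnot3KO cells. Its estimate was -0.57 ± 0.14 (limma adjusted p = 0.065), and its other probe sets gave log2 differences of -0.61 to -0.06 at 0 h. Ido1, the dioxygenase that opens tryptophan outside the liver, was picked after its values were seen, at 35.0, 40.8 and 42.1 in control cells and 52.2, 86.3 and 111 in Cnot3KO cells. Its groups did not overlap, and the estimate of 1.02 ± 0.20 did not pass (limma adjusted p = 0.054).

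None of 8 further genes listed under NAD synthesis passed limma over the 3 times. In Cnot3KO cells 6 were higher at every time (30.5% of all genes) and 1 lower (29.2%). The median of the 8 was 0.23 at 0 h and 0.58 over the 3 times. A half-life over 2-fold longer was counted for 4 (11.4% of all genes). Nmnat1, the nuclear adenylyltransferase that completes NAD, was the only one over 1.5-fold higher at 0 h (6.87% of all genes). It read 180.1, 173 and 84.0 in control cells and 288, 314 and 329 in Cnot3KO cells (1.17 ± 0.27, limma adjusted p = 0.062). Its other probe set gave a log2 difference of 0.17 at 0 h, against 0.68 in this one.

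Of 9 amino acid transporters, which carry aromatic and other neutral or cationic amino acids, 1 was over 1.5-fold higher at 0 h (6.87% of all genes) and 3 lower (2.99%). Slc3a2, the heavy chain shared by the aromatic amino acid carriers Slc7a5 and Slc7a8, read 1666, 1301 and 1516 in control cells and 3647, 3149 and 4479 in Cnot3KO cells. It rose by 1.32 ± 0.15 (limma adjusted p = 0.0499) and was the only gene of the metabolic lists that passed. The call was lost under 5 of 10 other settings, narrowly with no filter (limma adjusted p = 0.0512), a filter at the 50th percentile (0.0577), ribosomal centring (0.0513) or without 12 h (0.0519), and at 0.371 without 6 h. Slc38a4, a system A carrier, read 6399, 7085 and 9134 in control cells and 4143, 4276 and 4277 in Cnot3KO cells (-0.82 ± 0.16, limma adjusted p = 0.054). The other Slc38a4 probe set gave a log2 difference of -1.19 at 0 h, against -0.63 in this one. Slc43a2, a carrier of neutral amino acids, was 1.60-fold lower at 0 h, and its other probe sets gave log2 differences of -0.14 to -0.03. Slc7a2, a cationic carrier, was 1.56-fold lower at 0 h and 2.71-fold higher at 12 h, and its other probe sets gave log2 differences of -0.77 to 0.07 at 0 h.

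Because Tat and Tdo2 respond to glucocorticoids and the medium held dexamethasone, 12 other glucocorticoid-induced genes were set beside them. At 0 h 1 of the 12 was over 1.5-fold lower (2.99% of all genes) and none higher (6.87%), and none passed limma over the 3 times. The 1 was Zbtb16, at 680.0, 177 and 154 in control cells and 271, 98.6 and 109.7 in Cnot3KO cells. Its other probe sets gave log2 differences of -2.30 to -0.10 at 0 h, against -1.33 in this one. In Cnot3KO cells 4 were lower (29.2% of all genes) and 6 higher (30.5%) at every time, with a median of 0.02 at 0 h and 0.29 over the 3 times. At an unadjusted limma p under 0.05 stood 7, of which 5 were higher, beside 33.4% of all genes in either direction.

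**Figure D4:**
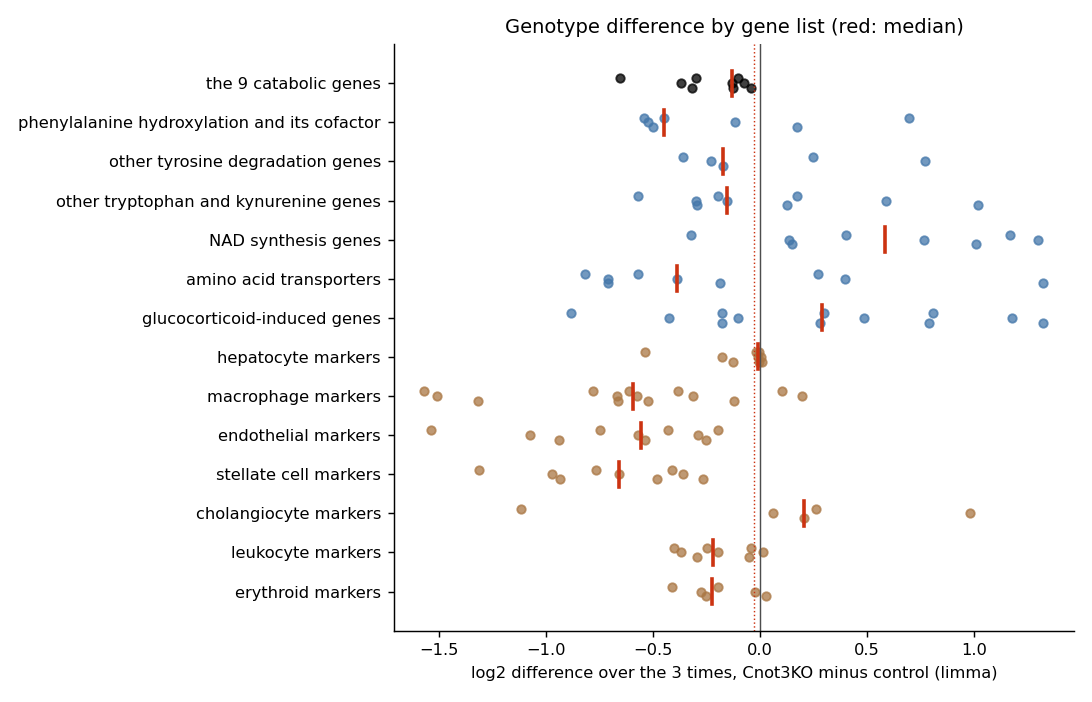
Log2 genotype difference over the 3 times (limma, Cnot3KO minus control) on the horizontal axis for each measured gene of each list, black for the 9 catabolic genes, blue for related genes and brown for cell type markers. Red bars are list medians and the dotted line the median of all genes. Most hepatocyte markers sit near 0, apart from Ahsg at -0.54, and the macrophage, endothelial and stellate cell markers sit mostly below it.

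Hepatocyte markers were high on all 6 arrays, and markers of other liver cells were also read. The 9 hepatocyte markers measured, among them Alb, Ttr and Apoa1, summed to between 185438 and 201525 in control and between 183107 and 193983 in Cnot3KO cells, and none passed limma. Alb, Afp, Ttr, Apoa1 and Fgb carried most of this sum, so it says little about the others. Of the 9, 3 were lower in Cnot3KO at every time (29.2% of all genes) and 0 higher (30.5%). Apob was 1.20-fold higher in Cnot3KO at 0 h and 1.70-fold lower at 12 h. Ttr read between 29852 and 33307 on all arrays, near the top of the intensity scale. Ahsg, a secreted liver glycoprotein with lower intensities, read 10289, 11274 and 12530 in control and 8621, 7243 and 7609 in Cnot3KO cells, with no overlap and an estimate of -0.54 at an unadjusted limma p of 0.016. Of the 14 macrophage markers, whose summed level is given with Kynu, 11 were lower in Cnot3KO at every time (29.2% of all genes). Of these, 3 passed limma as lower (Cd163, Mrc1 and Vsig4), as did 0.285% of all genes. As for Slc3a2, the calls of Pkhd1 and of these 3 were lost under 4 or 5 of 11 other settings, with limma adjusted p up to 0.371. Kynu and Kmo are also known from macrophages. The 10 endothelial markers summed to between 980.2 and 1876 in control and between 609 and 1240.2 in Cnot3KO cells, and 8 were lower at every time (29.2% of all genes). The 9 stellate cell markers summed to between 17528 and 18733 in control and between 8715 and 13834.5 in Cnot3KO cells, and 8 were lower at every time (29.2% of all genes). The 5 cholangiocyte markers summed to between 15343 and 20368 in control and between 26377 and 29612 in Cnot3KO cells, a sum carried by the keratins Krt19 and Krt7. Of the 5, 2 were higher (30.5% of all genes) and 1 lower (29.2%) in Cnot3KO at every time. The lower one, Pkhd1 of the primary cilium, passed limma at -1.12. The sums of the 8 leukocyte markers (42830.3 to 44492 in control, 38651 to 45464.5 in Cnot3KO cells) overlapped between genotypes, but S100a8 and S100a9 carried them. Of these 8, 4 were lower in Cnot3KO at every time (29.2% of all genes) and 0 higher (30.5%). The 6 erythroid markers stood at 416 to 471 in control and at 360.4 to 381 in Cnot3KO cells. No marker of any list was at 0. These values moved with genotype beside the lower values of the 9 genes, and their part in them was not tested.

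The genes with the most similar course to each catabolic gene were sought among 12820 genes above the array median on at least 1 array, by the root mean square difference of mean-centred log2 values over the 6 arrays. Tdo2 was left out because it never exceeded the median. Fah came closest to Scube1 (0.02), Hpd to Tram1 (0.04), Tat to Adgrl4 (0.03), Hgd to Usp48 (0.04), Kmo to Cpne1 (0.04), Kynu to Ankrd28 (0.04), Haao to Nhp2 (0.02) and Afmid to Snrnp25 (0.04). No catabolic gene and no gene of the related lists was among the 3 nearest of any other. The third nearest gene lay between 0.03 and 0.07 away.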

How the data were processed

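Total RNA of 6 cultures was labelled with biotin and hybridised to mouse arrays of Affymetrix, whose probes lie near the 3′ end of transcripts, 1 array per genotype and time. The authors deposited 1 intensity per probe set on a linear scale, computed with RMA according to the submitters' processing notes, and log2 was taken here. The table held 45037 probe sets with 0 missing values. Of these, 34945 named 1 gene, 932 several and 9160 none, and only the first kind was used for genes. Each gene was represented by its brightest probe set, and a gene was kept if it exceeded the 20th percentile on at least 1 array, which left 16499 of 18193 genes. The number of arrays limits the precision, and no replicate array exists.

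Genotype and time effects were fitted with limma 3.58.1 in R 4.3.3 (lmFit and eBayes), with 2 terms (genotype, and time as a factor), or with genotype by hours for the difference in change. Adjusted p-values are Benjamini-Hochberg values over all genes, called at 0.05. P-values measure the spread between these arrays, with time points standing in for replicates. The genotype test and the genotype by hours term were tried on simulated data first, with 100 changed genes at each size among 16499. For genotype, 21% of differences of 1 (log2) and 92% of differences of 2 were recovered. For the difference in change over 12 h, 18% were recovered at 2 and 90% at 4. A gene that did not pass may thus still differ. A half-life is 12 h divided by the log2 loss over 12 h, and over 2-fold longer required at most 12 h in control cells and a rate under the control rate divided by 2. The yardstick between probe sets is the SD of the difference between 2 sets of a gene, both above the array medians, divided by the square root of 2. The 9 genes, the related gene lists, the cell type markers and the motifs were chosen with earlier results of these data known. Genes outside the 9 were named if over 1.5-fold apart at 0 h or past limma, at most 5 per list, together with the 3 nearest genes of each catabolic gene and Cnot3, and others are said to be picked later. Promoters came from RefSeq (GRCm38.p6). Alternatives comprised the filter, the choice of probe set, centring on Gapdh or on 46 ribosomal protein genes, an intensity trend and leaving out each time. Fitting each probe set on its own and time as linear hours were added after seeing the data.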

Additional observations from a re-analysis of the deposited data

Results flagged for a closer look

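Several probe sets moved in opposite directions in the 2 genotypes, with both ActD arrays above the start in one genotype and both below it in the other. Among the 9 genes this held for 2 secondary probe sets, out of 16 sets in all. The share of all probe sets that moved so is not given here, so neither this count nor that of the related genes below has one beside it. The third Afmid set changed over 12 h by 0.25 (log2) in control and -0.24 in Cnot3KO cells, a difference of -0.49 (limma adjusted p = 0.491 for the genotype by time term). The other Hgd set changed by 0.17 and -0.15, a difference of -0.31 (limma adjusted p = 0.620). Of the related genes, 4 did so with a difference over 1. Nmrk1, a kinase of the NAD salvage pathway, differed by 2.23 (-1.02 in control and 1.22 in Cnot3KO cells, limma adjusted p = 0.262). Gch1, which makes the cofactor precursor, differed by 1.35 (limma adjusted p = 0.273), Nmnat1 by 1.29 (limma adjusted p = 0.310) and Slc7a5, a carrier of large neutral amino acids, by -1.05 (limma adjusted p = 0.306). These adjusted p-values come from the fit over all probe sets, and none passed.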

How the results depend on the processing

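No paired analysis was possible because the groups share fewer than 2 replicate numbers, and the limma fit itself compares the genotypes within each time. The number of the 9 genes over 1.5-fold apart was 0 at 0 h and 2 when the 12 h arrays took the place of the 0 h arrays. The share of all genes over 1.5-fold apart at 12 h is not given here, so the 2 has none beside it. The yardstick between probe sets was also wider at 12 h (0.50) than at 0 h (0.24). The number past limma over the 3 times was 0 with all arrays. It was 1 (Hpd) with the mean of the probe sets of a gene (limma adjusted p = 0.048), where 1625 of 16219 genes passed. Centring on Gapdh also gave 1 (Hpd, limma adjusted p = 0.039), where 2639 of 16499 genes passed. When 1 time was left out the number was 0 to 2, with 2 (Hpd and Afmid) without 0 h, where 5810 of 16499 genes passed. The number past limma at 12 h against 0 h was 0, and 1 (Kynu) with centring on ribosomal protein genes, where 1194 of 16499 genes passed. With each probe set on its own it was also 1 (Kynu, limma adjusted p = 0.047), where 3433 of 37937 probe sets passed. The number with a half-life over 2-fold longer was 0, and 0 to 1 when 1 time was left out (Tat without 0 h). The share of all genes without 0 h is not given here. At 0 h, values near 0 turned sign for Kmo (0.02 to -0.05 with Gapdh centring) and Afmid (-0.01 to 0.01 with the mean of the probe sets). Signs also turned for Haao at 12 h against 0 h (-0.048 with ribosomal centring) and, for the difference in change, for Hgd (0.05 with ribosomal centring), Fah (-0.21 with Gapdh centring) and Kynu (-0.18 with Gapdh centring). None of the latter 4 values passed limma, and the causes were not tested. The median difference in change of the 9 was -0.12 with all arrays and 0.15 without 0 h. Over all genes the count past limma for genotype was 163, and 0 to 5810 under the alternatives, so a pass or a miss near the threshold depends on the setting. The count of genes at 12 h against 0 h was 1116, and 0 to 2153 under the alternatives fitted by gene. Gapdh centring moved the arrays by -0.18 (log2) in control and 0.10 in Cnot3KO cells at 12 h.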

Other observations

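Branch by branch, the lists around the catabolic genes differed in how they stood in the 2 genotypes. Of the 8 genes listed under NAD synthesis, only Nmnat2 was lower in Cnot3KO at every time. Nampt, the rate-limiting enzyme of NAD salvage, read 990.4, 638 and 274 in control and 1026, 941 and 880.2 in Cnot3KO cells, and Nmnat3, the mitochondrial adenylyltransferase, read 149, 49.3 and 36.1 in control and 176, 132 and 92.6 in Cnot3KO cells. Both were close at 0 h and apart after ActD, and neither passed the genotype by time term (limma adjusted p = 0.179 for Nampt and 0.291 for Nmnat3). Their other probe sets gave log2 differences at 0 h of -0.12 to 0.12 for Nampt and -0.24 for Nmnat3. The values of these sets in ActD are not given here, so they are no check on the later differences.

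Aldh8a1, an aldehyde dehydrogenase of the kynurenine pathway, read 298, 115 and 59.9 in control and 226, 218 and 142 in Cnot3KO cells, so that its order turned between 0 and 6 h (limma adjusted p = 0.180 for the genotype by time term). The other Aldh8a1 probe set gave a log2 difference of 0.08 at 0 h, against -0.40 in this one. Pts, which makes the cofactor precursor after Gch1, read 251, 454 and 713 in control and 234, 330 and 371 in Cnot3KO cells. The other Pts probe set gave a log2 difference of 0.35 at 0 h, against -0.10 in this one. The values of the other Aldh8a1 and Pts sets in ActD are not given here, so they are no check on the differences there. These genes were picked after their values were seen.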
